A study of Mus musculus with 8 samples.

Results

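The Hoxd cluster is a run of 9 homeobox genes on mouse chromosome 2, Hoxd1, Hoxd3, Hoxd4, Hoxd8, Hoxd9, Hoxd10, Hoxd11, Hoxd12 and Hoxd13. It was followed in chondrocytes, the cells of cartilage, through libraries labelled H3K27me3, histone H3 trimethylated at lysine 27. Its members were the called peaks that lay over 1 of these genes or within 2 kb of it, and a gene with such a peak is called marked. There were 11 such peaks of 28057 in wild type, 12 of 49405 in Utx-cKO, 11 of 27013 in Jmjd3-cKO and 10 of 33739 in Ezh2-cKO, 44 of 138214 in all. All 9 genes were found among the 21883 protein-coding genes of the RefSeq table for GRCm38.p6.

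Chromatin from cultured chondrocytes of cartilage was taken through chromatin immunoprecipitation (ChIP) with 1 antibody, labelled anti-H3K27me3, and sequenced beside its input for each of 4 genotypes, 8 libraries in all. The groups were wild type and conditional knockouts of Ezh2 (labelled Ezh2-Cko), of Utx (Utx-cKO) and of Jmjd3 (Jmjd3-Cko), each written with cKO in what follows. The series asks how the mark compares between wild-type cells and cells that lack one of these enzymes. The labels give no Cre driver, age, sex or number of animals, nor whether the cartilage came from limb, rib or elsewhere, which matters for genes whose use differs along the body. Sample titles begin with a code that Utx-cKO and Jmjd3-cKO share and that is another one in wild type and yet another in Ezh2-cKO, so outside the Utx-cKO and Jmjd3-cKO pair the code and the deletion cannot be told apart. Peak lists do not show whether a targeted gene was deleted, so the genotypes are given as labelled. There was 1 ChIP library per genotype, so every difference between genotypes is given without a replicate check and without a test.

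Hox genes encode transcription factors that give cells their position along the body and limb axes. In the Hoxd cluster the order of genes on the chromosome follows the order in which they act. The genes from Hoxd1 to Hoxd8 are used earlier and over more of the trunk, and those from Hoxd9 to Hoxd13, the posterior genes, pattern the limb, with Hoxd13 acting in the digits. Polycomb group complexes keep Hox genes silent where they are not used: Ezh2 is the enzyme of Polycomb repressive complex 2 that methylates lysine 27, and Utx (Kdm6a) and Jmjd3 (Kdm6b) remove the methyl groups.

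By this rule 66.7% of all protein-coding genes were marked in wild type, 71.7% in Utx-cKO, 67.1% in Jmjd3-cKO and 68.9% in Ezh2-cKO. All 20 genes of a housekeeping list were marked in each of the 4 lists, and of 20 lineage regulators known as Polycomb targets in many cells, 9 were marked in wild type, 17 in Utx-cKO, 14 in Jmjd3-cKO and 11 in Ezh2-cKO. The median share of a gene with its 2 kb flanks under peaks was 20.7 to 30.4% for the housekeeping list. For the lineage regulators it was 0.0 to 7.7%. Genes known as Polycomb targets were thus covered less than housekeeping genes in every list, and the reason was not tested. A peak over a Hoxd gene is given here as a called peak in a library with that label, and not read as silencing. Of 12 chondrocyte marker genes 11 were marked in wild type and 12 in each knockout. Of 3 markers each, osteoblast and endothelial lists had 1 marked in every list, blood markers 0 to 3 and muscle markers 0 to 2. The ChIP libraries held, with duplicates removed, 25655346 to 34786292 fragments and the inputs 16599532 to 24041619. For fold enrichment, the ratio of a peak's signal to that library's input, the authors' deposited values were taken and used to rank peaks within a list. Its median over all peaks was 3.37 in wild type, 3.02 in Utx-cKO, 3.83 in Jmjd3-cKO and 3.07 in Ezh2-cKO.

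The promoters of the cluster are shown first, because peaks lay over some of them in every list and over others in none. The RefSeq promoter table (GRCm38.p6) holds 10 windows for the 9 genes, each running from 250 bases before an annotated start to 50 bases after it. Hoxd11 has a pair of starts in it. The 6 windows printed here were chosen because they differ in peaks or in base composition. Capitals mark each CG, a cytosine followed by a guanine, the pair that makes up CpG islands. CG reads the same on both strands.

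Hoxd13 (chr2:74667975-74668274, plus strand): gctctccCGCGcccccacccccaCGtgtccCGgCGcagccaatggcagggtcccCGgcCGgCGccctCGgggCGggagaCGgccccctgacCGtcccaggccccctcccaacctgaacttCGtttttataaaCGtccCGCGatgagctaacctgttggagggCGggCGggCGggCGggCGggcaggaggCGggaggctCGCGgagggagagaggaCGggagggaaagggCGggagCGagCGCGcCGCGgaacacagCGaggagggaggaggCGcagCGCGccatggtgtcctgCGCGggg
Hoxd12 (chr2:74674763-74675062, plus strand): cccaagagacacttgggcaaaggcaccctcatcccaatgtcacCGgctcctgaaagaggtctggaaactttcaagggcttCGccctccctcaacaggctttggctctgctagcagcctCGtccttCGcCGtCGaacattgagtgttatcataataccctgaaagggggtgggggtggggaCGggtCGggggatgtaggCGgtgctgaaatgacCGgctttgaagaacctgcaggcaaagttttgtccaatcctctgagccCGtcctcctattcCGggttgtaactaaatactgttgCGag
Hoxd11 second start (chr2:74682073-74682372, plus strand): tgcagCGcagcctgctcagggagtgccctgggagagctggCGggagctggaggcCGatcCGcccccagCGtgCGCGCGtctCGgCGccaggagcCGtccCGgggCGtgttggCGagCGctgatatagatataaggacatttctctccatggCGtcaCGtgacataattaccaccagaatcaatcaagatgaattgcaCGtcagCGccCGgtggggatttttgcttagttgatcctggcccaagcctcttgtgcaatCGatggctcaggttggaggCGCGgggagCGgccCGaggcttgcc
Hoxd9 (chr2:74697513-74697812, plus strand): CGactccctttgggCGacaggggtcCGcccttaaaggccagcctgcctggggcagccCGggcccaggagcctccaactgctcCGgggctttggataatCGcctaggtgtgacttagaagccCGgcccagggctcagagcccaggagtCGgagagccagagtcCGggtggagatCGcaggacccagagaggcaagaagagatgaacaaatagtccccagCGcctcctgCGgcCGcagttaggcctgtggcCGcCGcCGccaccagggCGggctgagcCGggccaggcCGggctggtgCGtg
Hoxd8 (chr2:74704365-74704664, plus strand): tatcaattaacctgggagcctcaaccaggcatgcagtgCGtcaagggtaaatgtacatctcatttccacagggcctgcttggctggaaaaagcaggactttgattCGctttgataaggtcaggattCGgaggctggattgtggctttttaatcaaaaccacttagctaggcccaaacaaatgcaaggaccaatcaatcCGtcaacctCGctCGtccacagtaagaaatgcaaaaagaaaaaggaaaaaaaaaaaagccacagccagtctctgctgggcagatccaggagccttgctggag
Hoxd4 (chr2:74721728-74722027, plus strand): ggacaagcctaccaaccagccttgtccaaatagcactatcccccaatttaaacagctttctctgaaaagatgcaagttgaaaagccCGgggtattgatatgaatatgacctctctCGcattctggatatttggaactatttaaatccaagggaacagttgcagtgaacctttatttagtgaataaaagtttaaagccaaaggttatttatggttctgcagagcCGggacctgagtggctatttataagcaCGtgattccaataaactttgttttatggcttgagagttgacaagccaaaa

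Windows of Hoxd1, Hoxd3, Hoxd8, Hoxd9 and Hoxd10 were touched by a peak in all 4 lists. The Hoxd13 window was touched in wild type, Utx-cKO and Jmjd3-cKO, and the second start of Hoxd11 in the 3 knockouts. No list had a peak over the windows of Hoxd12, Hoxd4 or the first start of Hoxd11. Each list thus touched 6 or 7 of the 10 windows, 6 in wild type, where a peak touched 57.5% of 21262 promoter windows of protein-coding genes, 7 in Utx-cKO (62.3%), 7 in Jmjd3-cKO (58.6%) and 6 in Ezh2-cKO (59.4%). These shares lie near the background, so the number of Hoxd promoters under peaks does not set the cluster apart.

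Of the 3 windows without peaks, 2 were poor in CG. The Hoxd4 window held 4 CG pairs and the first start of Hoxd11 also 4, a count that 28.4% of all windows did not exceed, and the Hoxd12 window held 13, the median of all windows. The windows of Hoxd13, with 37, and of the second start of Hoxd11, with 25, were rich in CG but not touched in every list. The Hoxd8 window held only 6 CG pairs in a sequence with a run of adenines, yet it was touched by the strongest peak of the cluster in all 4 lists. That peak was 2567 to 3437 bp long, so its fold enrichment is not a value of the window alone. Across the genome the share of windows touched by a wild-type peak went from 6.06% of those with 0 to 4 CG pairs, through 32.4% with 5 to 9 and 72.3% with 10 to 14, to 95.5% with 20 or more. At least 1 CG was present in 95.4% of all windows. A CG count describes the letters in the window and nothing beyond it.

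**Figure D1:**
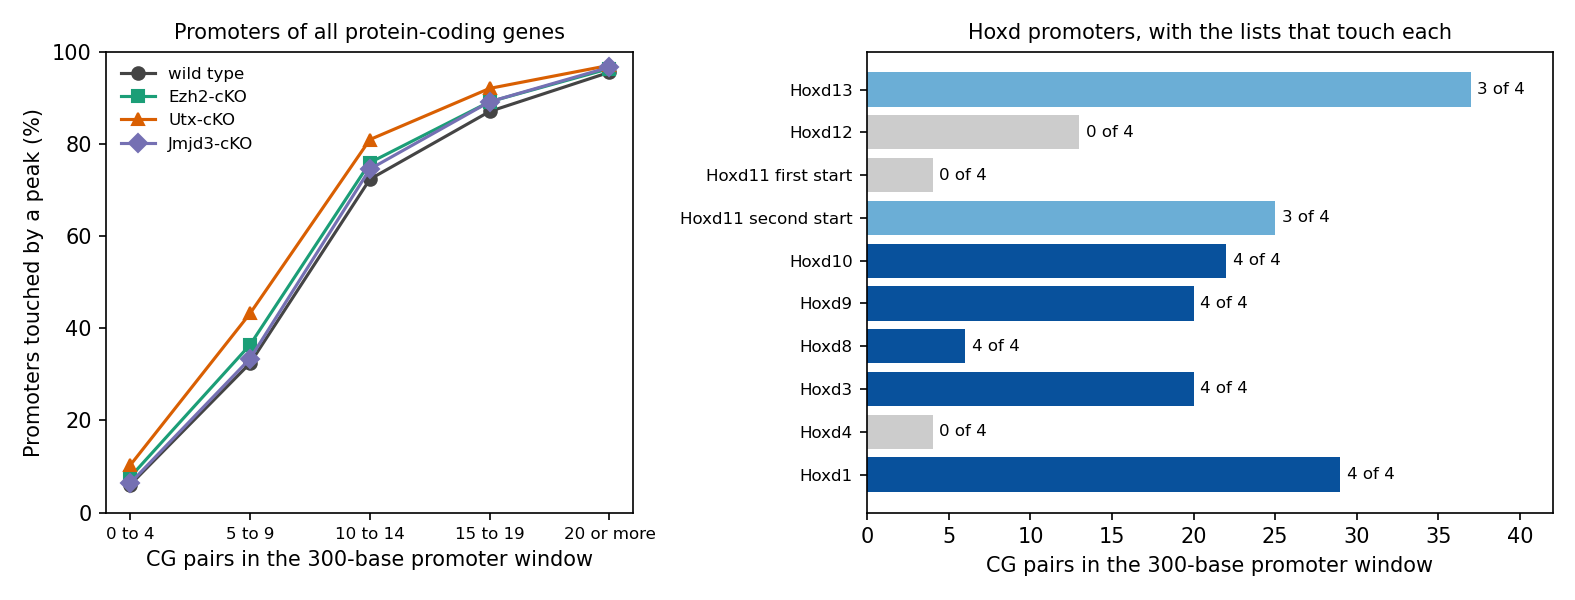
Left, share of promoter windows of all protein-coding genes touched by a peak (%, y axis) by the number of CG pairs in the 300-base window (x axis), 1 line per genotype. Right, CG pairs in each Hoxd window (bars) with the number of the 4 lists that touch it. Hoxd8 is touched in all 4 lists with 6 pairs, whereas Hoxd12 with 13 is touched in none.

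The wild-type list showed a cluster whose peaks were strongest in its middle. Hoxd8, which lies at chromosome 2, 74704615 to 74707933, on the border between anterior and posterior genes, had a peak of 2637 bp with fold enrichment 10.69, at percentile 95.9 of its list. Its posterior neighbour Hoxd9 (74697763 to 74700208) had a peak of 2097 bp with fold enrichment 8.16, and Hoxd3 (74711993 to 74748271) had one of 1835 bp over its start with 6.11. Each remaining wild-type peak of the cluster had a fold enrichment between 2.42 and 3.59. The centre of the cluster therefore carried the strong peaks and both flanks the weak ones.

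That order was the same in the 3 knockouts. Fold enrichment at Hoxd8 was 14.08 in Utx-cKO, 15.78 in Jmjd3-cKO and 11.53 in Ezh2-cKO, at percentiles 97.6, 97.2 and 95.9 of these lists. At Hoxd9 it was 8.70 in Utx-cKO, 10.78 in Jmjd3-cKO and 8.37 in Ezh2-cKO. At the Hoxd3 start it was 8.61 in Utx-cKO, 9.05 in Jmjd3-cKO and 5.28 in Ezh2-cKO. In each list Hoxd8 stood first, Hoxd9 next and Hoxd3 after it among the peaks of the cluster. The values do not compare genotypes, since the scale of fold enrichment differs between lists.

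**Figure D2:**
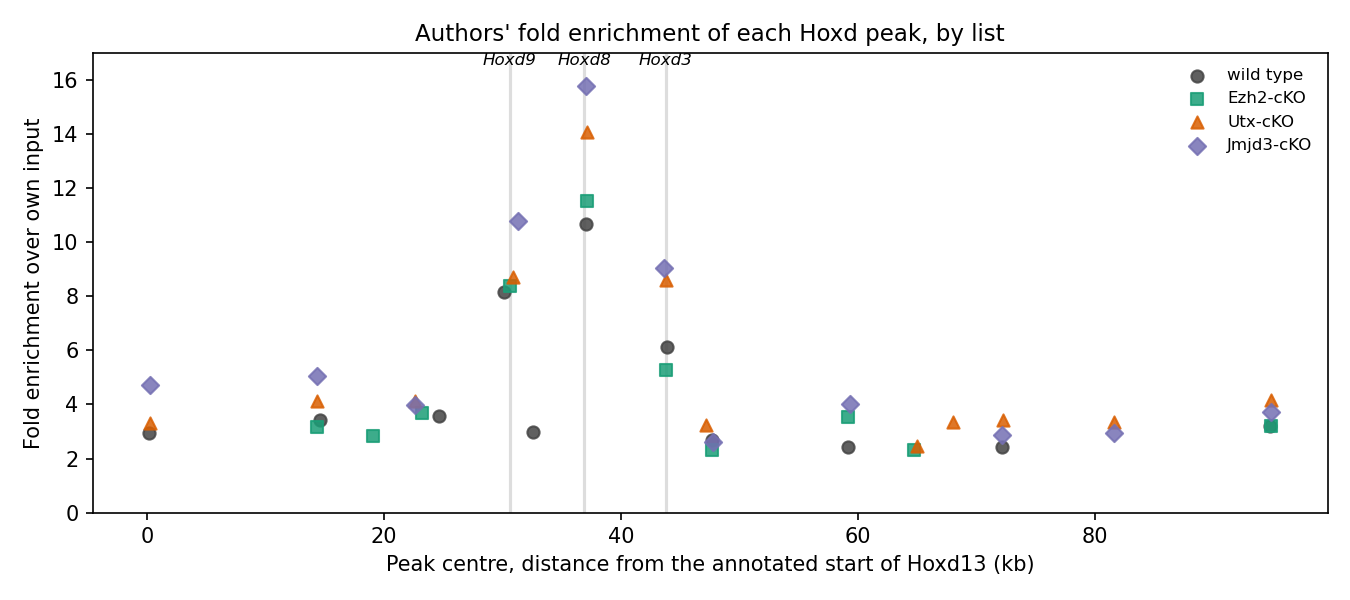
Authors' fold enrichment over own input (y axis) of each of the 44 peaks, plotted at the peak centre as distance from the Hoxd13 start in kb (x axis), with 1 symbol per genotype. The 3 highest points of each genotype sit at Hoxd8, Hoxd9 and Hoxd3.

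The 44 peaks fell into 13 regions when peaks of different lists that overlapped by at least 1 bp were joined. Of these regions 7 had peaks in all 4 lists, 3 in 3 lists, 2 in a pair of lists and 1 in Utx-cKO alone. The 7 common regions covered the second Hoxd11 start, Hoxd10, Hoxd9, Hoxd8, the start of Hoxd3, a site inside Hoxd3 and the start of Hoxd1. The region in Utx-cKO alone was a peak of 434 bp at 74736085 to 74736518 inside the Hoxd3 model, with fold enrichment 3.35.

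**Figure D3:**
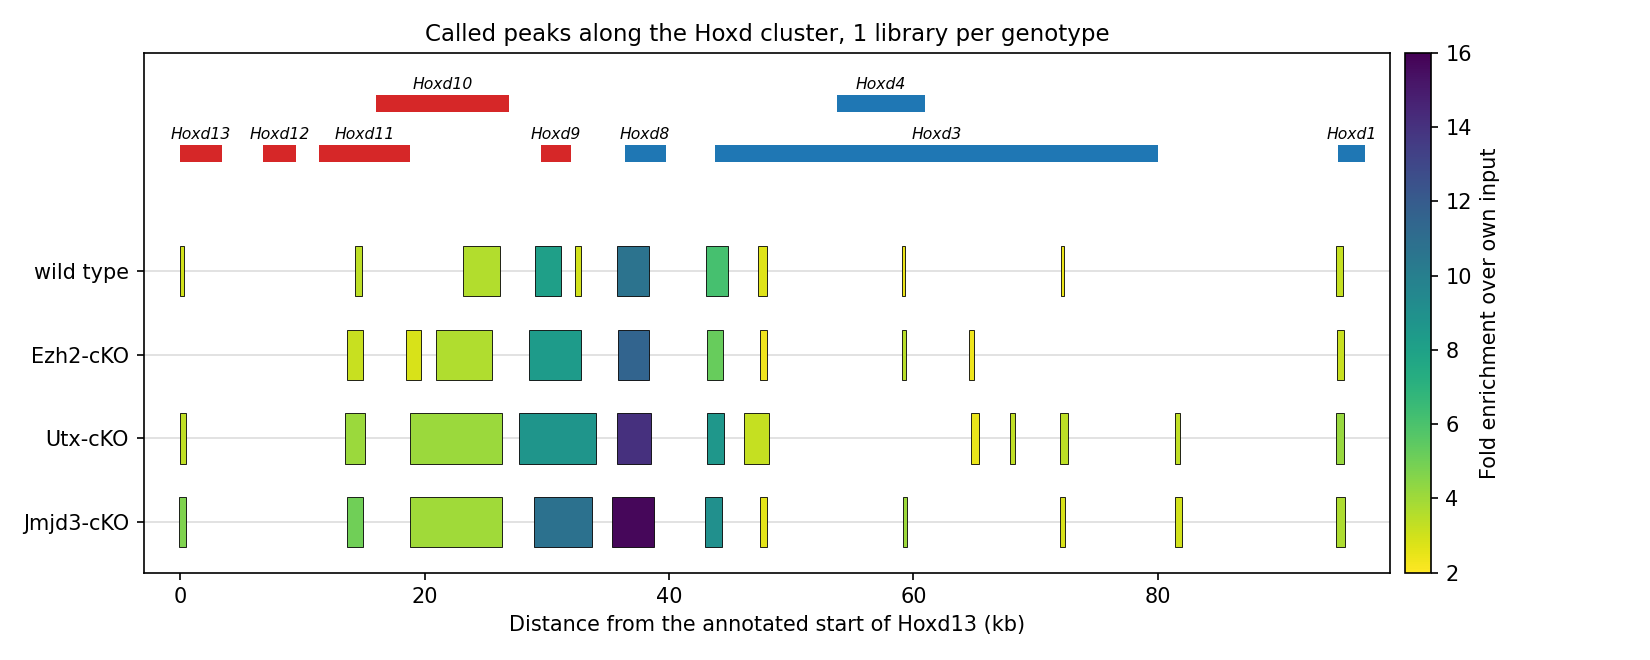
Peaks along the cluster as boxes, 1 row per genotype, coloured by fold enrichment over own input. The x axis is the distance from the annotated Hoxd13 start in kb. Gene models above are red for posterior and blue for anterior genes. All 4 rows have their darkest box over Hoxd8, and the boxes over Hoxd9 and Hoxd10 are wider in the knockouts than in wild type.

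By gene, 8 of 9 members were marked in wild type, 7 in Utx-cKO, 8 in Jmjd3-cKO and 7 in Ezh2-cKO. Of all protein-coding genes, 66.7 to 71.7% were marked. Hoxd12 was the member without a peak in any list, and with only Hoxd12 unmarked in wild type no other member could be gained. None was gained, where 3.25%, 5.5% and 2.07% of all genes were gained in Ezh2-cKO, Utx-cKO and Jmjd3-cKO. Ezh2-cKO lacked Hoxd13 (all genes, 1.04% lost) and Utx-cKO lacked Hoxd4 (0.457%), while Jmjd3-cKO lacked none (1.68%). With peaks of fold enrichment 4 or more, 3 members were marked in wild type (54.5% of all genes), 6 in Utx-cKO (61.6%), 7 in Jmjd3-cKO (58.4%) and 4 in Ezh2-cKO (57.2%). Windows of neighbouring genes overlap, so 1 peak can mark a pair of genes.

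Hoxd13 (74668225 to 74671603), the last gene of the cluster and a regulator of digit formation, had a short peak at its start in 3 lists. The peak was 364 bp long in wild type, 529 bp in Utx-cKO and 580 bp in Jmjd3-cKO, with fold enrichment 2.95, 3.32 and 4.71. In Ezh2-cKO the nearest peak to this start lay 13.6 kb away. The neighbour on that side, Evx2, another homeobox gene, showed the same presence and absence: it was marked in wild type, Utx-cKO and Jmjd3-cKO, with fold enrichment 2.91, 3.62 and 3.09, and not in Ezh2-cKO. By fold enrichment the Hoxd13 peak lay at percentile 37.4 of the wild-type list, 61.3 of the Utx-cKO list and 57.4 of the Jmjd3-cKO list.

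Hoxd12 (74675013 to 74677705), which acts with Hoxd13 in the distal limb, lay in a stretch without peaks. That stretch ran over 13.9 kb in wild type, 13 kb in Utx-cKO and 13.2 kb in Jmjd3-cKO. In Ezh2-cKO it ran over 60.9 kb, through Hoxd13 and Evx2. The Hoxd12 start lay 6.45 kb from the nearest peak in wild type, 6.85 kb in Ezh2-cKO and 6.28 to 6.29 kb in the demethylase knockouts. With flanks of 5 kb the gene was marked in all 4 lists, through peaks of its neighbours.

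Hoxd11 (74679558 to 74687016), which patterns the forearm bones together with its paralogue Hoxa11, had a narrow wild-type peak and wider ones in the knockouts. The wild-type peak, 630 bp with fold enrichment 3.41, began 185 bp past the second annotated start. The peaks there measured 1619 bp in Utx-cKO, 1300 bp in Jmjd3-cKO and 1308 bp in Ezh2-cKO, and each of them ran over that start. With its flanks Hoxd11 was covered by peaks over 5.5% of its length in wild type, 31.3% in Utx-cKO, 28.6% in Jmjd3-cKO and 22.4% in Ezh2-cKO. In Utx-cKO and Jmjd3-cKO part of this coverage was the near end of the Hoxd10 peak, and in Ezh2-cKO it was a separate peak of 1258 bp at 74686689 to 74687946.

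Hoxd10 (74684273 to 74695106), a gene of limb and spinal motor neuron patterning, had the longest peak of the cluster in all 4 lists. Its wild-type peak of 3029 bp reached 0.524 kb before the start in the promoter table, at 74691891, which lies inside the gene model. In Utx-cKO and Jmjd3-cKO the peaks were 7515 and 7536 bp long, both began at 74687045, and both reached 4.85 kb before that start. In Ezh2-cKO a peak of 4546 bp reached 2.72 kb before it, and a further one of 1258 bp lay beyond. Past the start the reach was nearly equal in wild type, Utx-cKO and Jmjd3-cKO, at 2.5, 2.67 and 2.69 kb, and 1.83 kb in Ezh2-cKO. The added length thus lay upstream of that start, on the side of Hoxd11 and inside the longest RefSeq model of Hoxd10.

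Hoxd9 (74697763 to 74700208), the first of the posterior genes, had its peak joined to a second one in the knockouts. Wild type had a peak of 2097 bp over the gene and a separate one of 543 bp past its end, with fold enrichment 2.97. Each knockout had a single peak in their place, of 6246 bp in Utx-cKO, 4767 bp in Jmjd3-cKO and 4230 bp in Ezh2-cKO. The gene itself was covered over 66.4% of its length in wild type and over its whole length in each knockout. With flanks the covered share was 41.0% in wild type, 96.7% in Utx-cKO, 74.0% in Jmjd3-cKO and 65.6% in Ezh2-cKO.

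At the starts of the anterior genes Hoxd8, Hoxd3 and Hoxd1 the knockout peaks had 0.74 to 1.3 times the wild-type length. At Hoxd8 they measured 2637 bp in wild type, 2829 in Utx-cKO, 3437 in Jmjd3-cKO and 2567 in Ezh2-cKO. At the Hoxd3 start they were shorter in the knockouts, with 1358 bp in Ezh2-cKO, 1415 bp in Jmjd3-cKO and 1454 bp in Utx-cKO against 1835 bp in wild type. At Hoxd1 (74762980 to 74765142), the most anterior gene, they ranged from 510 bp in Ezh2-cKO to 698 bp in Jmjd3-cKO, with fold enrichment 3.19 to 4.15 over the 4 lists.

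Hoxd4 (74721978 to 74729160), a gene of the hindbrain and upper spine, was marked through 1 small peak in the 3' part of its RefSeq model. That peak was 265 bp long in wild type, 370 bp in Ezh2-cKO and 393 bp in Jmjd3-cKO, with fold enrichment 2.42, 3.52 and 4.03. It lay at percentile 6.53 of the wild-type list by fold enrichment, and Utx-cKO had no peak there. The start of Hoxd4 in the promoter table, which is the start of this model, lay at least 5.27 kb from a peak in every list. The RefSeq model of Hoxd3 spans Hoxd4, so this peak counts for both genes.

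**Figure D4:**
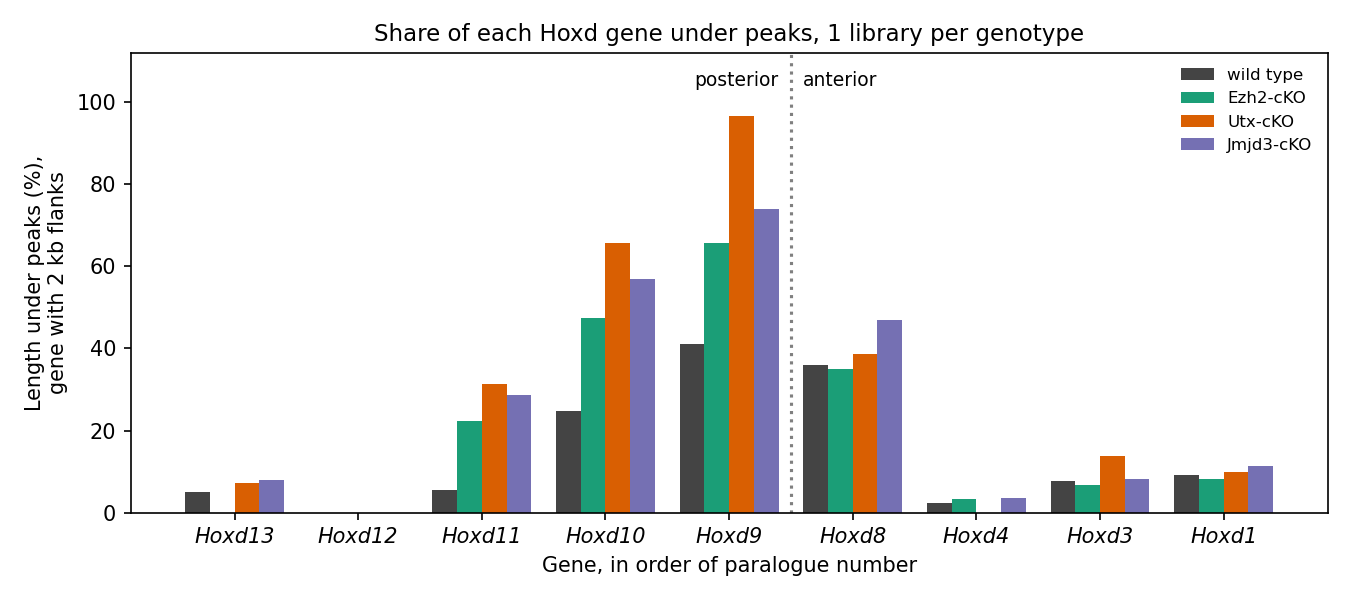
Share of each gene with its 2 kb flanks under peaks (%, y axis) for the 9 genes in order from Hoxd13 to Hoxd1 (x axis), 1 bar per genotype. Wild type is lowest of the 4 at Hoxd9, Hoxd10 and Hoxd11, where the knockouts reach 22.4 to 96.7%, and no bar stands at Hoxd12.

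Summed over their length, posterior genes were covered over a larger share than anterior ones in all 4 lists, but by gene the wild-type order was the other way. In wild type peaks covered 18.5% of the 36 kb around Hoxd9 to Hoxd13 and 11.7% of the 53.8 kb around Hoxd1 to Hoxd8, a difference of 6.9 percentage points. The difference was 27.4 points in Utx-cKO (44.2% against 16.8%), 25.5 in Jmjd3-cKO (39.4% against 13.9%) and 20.8 in Ezh2-cKO (31.5% against 10.8%). The Hoxd3 model, 36279 bp long, made up most of the anterior length, and with its flanks it was covered over 7.62% in wild type. The summed anterior share therefore depended largely on this gene, and a sum without it was not tested. The median covered share per gene was 5.5% posterior against 8.38% anterior in wild type, 31.3% against 11.9% in Utx-cKO, 28.6% against 9.8% in Jmjd3-cKO and 22.4% against 7.5% in Ezh2-cKO. Of 5 posterior genes 4 were marked in each list but Ezh2-cKO, which had 3, and of 4 anterior genes 4 in each list but Utx-cKO, which had 3. On the posterior side the summed difference rested on Hoxd9, Hoxd10 and Hoxd11, since Hoxd12 had no peak and Hoxd13 with its flanks was covered over at most 7.86%. With Hoxd9 left out it was 1.4 points in wild type, 18.2 in Utx-cKO, 16.6 in Jmjd3-cKO and 13.3 in Ezh2-cKO. Set as Hoxd11 to Hoxd13 against Hoxd1 to Hoxd4, the difference turned to -3.5 points in wild type and was 4.3, 4.8 and 8.2 in Ezh2-cKO, Utx-cKO and Jmjd3-cKO. With peaks of fold enrichment 4 or more it was -2.5 points in wild type, 33.6 in Utx-cKO, 8.7 in Jmjd3-cKO and 4.5 in Ezh2-cKO. That limit kept the Hoxd10 peak of Utx-cKO, 7515 bp at 4.12. It dropped the Hoxd10 peak of Jmjd3-cKO, 7536 bp at 3.99. With peaks within 3 kb merged the difference was 14.2 points in wild type, 20.9 in Utx-cKO, 31.5 in Jmjd3-cKO and 18.7 in Ezh2-cKO. In Utx-cKO and Ezh2-cKO it thus lay closer to wild type than by the main rule. The highest fold enrichment was at the anterior gene Hoxd8 in each list, while the median over peaks was higher for posterior genes, with 3.41 against 2.95 in wild type, 4.12 against 3.38 in Utx-cKO, 4.89 against 3.73 in Jmjd3-cKO and 3.42 against 3.35 in Ezh2-cKO.

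Covered length in the cluster was larger in each knockout than in wild type, mostly through the posterior genes. Peaks covered 12.9 kb of the 89.7 kb within 2 kb of the 9 genes in wild type, 24.9 kb in Utx-cKO, 21.7 kb in Jmjd3-cKO and 17.1 kb in Ezh2-cKO, at median fold enrichments of 3.22, 3.76, 4.03 and 3.36 in that order. Relative to wild type this was 1.93 times in Utx-cKO, 1.67 times in Jmjd3-cKO and 1.32 times in Ezh2-cKO. Summed over all protein-coding genes the ratios were 1.70, 1.02 and 1.16, listed the same way. For the posterior genes they were 2.39 in Utx-cKO, 2.13 in Jmjd3-cKO and 1.70 in Ezh2-cKO, and for the anterior genes 1.44, 1.19 and 0.922. Jmjd3-cKO covered more of the cluster than wild type by a ratio above that of its genes as a whole. Its library had the fewest ChIP fragments and peaks and the highest median fold enrichment, 3.83 against 3.37 in wild type. Whether these traits of the library bear on the ratio was not tested. When peaks within 3 kb of each other were merged, the ratio turned to 0.973 in Ezh2-cKO. It fell to 1.46 in Utx-cKO and to 1.17 in Jmjd3-cKO. With peaks of fold enrichment 4 or more it was 3.08 in Utx-cKO, 1.81 in Jmjd3-cKO and 1.24 in Ezh2-cKO. Of the long Hoxd10 peaks, that limit kept only the one in Utx-cKO, at 4.12, and dropped the one in Jmjd3-cKO, at 3.99.

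Gene by gene, coverage at least 1.5 times that of wild type was seen at Hoxd9, Hoxd10 and Hoxd11 in all 3 knockouts. In Ezh2-cKO these were 3 of the 7 members marked in both lists, against 18.8% of all such genes. In Utx-cKO 4 of 7 passed, Hoxd3 being the other, against 45.2%, a share near that background. In Jmjd3-cKO 4 of 8 passed, with Hoxd13, against 9.41%. The ratios were 1.6, 2.36 and 1.81 at Hoxd9, 1.92, 2.66 and 2.31 at Hoxd10 and 4.07, 5.7 and 5.19 at Hoxd11, in Ezh2-cKO, Utx-cKO and Jmjd3-cKO. With peaks within 3 kb merged, Hoxd9 passed in none of the knockouts, with ratios of 0.656 in Ezh2-cKO and 1.0 in both Utx-cKO and Jmjd3-cKO, and Hoxd10 did not pass in Ezh2-cKO, with 1.3. With flanks of 5 kb the Hoxd9 ratio was 1.68 in Utx-cKO, 1.49 in Jmjd3-cKO and 1.14 in Ezh2-cKO. At a q of 0.001 or less the Hoxd11 ratio in Ezh2-cKO was 2.08, and with peaks of fold enrichment 4 or more the Hoxd3 ratio was 0.792 in Utx-cKO. No member marked in both lists was covered over 1.5 times less in a knockout.

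Counted by region, which removes the overlap of gene windows, the picture was similar. Of 10 Hoxd regions with peaks in both wild type and Jmjd3-cKO, 5 were at least 1.5 times longer in the knockout, against 13.4% of 20868 such regions in the genome, and the median ratio was 1.54 against 1.03. In Ezh2-cKO 3 of 8 were longer, against 18.3%, with a median of 1.18 against 1.06, and the Hoxd10 region among them sat at the limit with 1.5. In Utx-cKO 5 of 9 were longer, against 36.3%, with a median of 2.37 against 1.26. The region over the Hoxd3 start had ratios of 0.74, 0.792 and 0.771 in Ezh2-cKO, Utx-cKO and Jmjd3-cKO, below 1 in each. The longer regions were not all posterior. A region inside Hoxd3, from 74714366 in Utx-cKO, had a ratio of 2.78 there, but 0.793 in Ezh2-cKO and 0.758 in Jmjd3-cKO. Another inside Hoxd3, from 74740236 in Utx-cKO, had 2.4 there and 1.64 in Jmjd3-cKO. These 3 comparisons share the wild-type library, and regions of 1 cluster are not replicates.

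**Figure D5:**
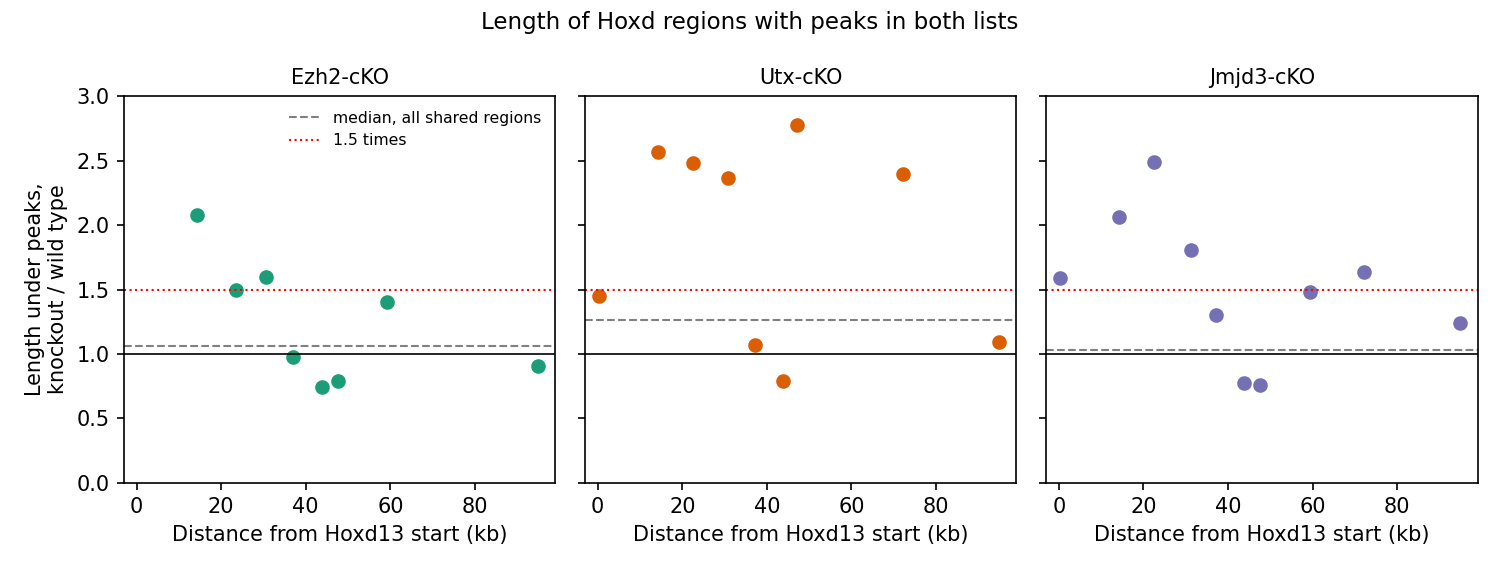
Length under peaks in the knockout divided by that in wild type (y axis) for each Hoxd region with peaks in both lists, at its distance from the Hoxd13 start in kb (x axis), 1 panel per knockout. The black line marks equal length, the dashed line the median of all shared regions of the genome and the dotted line 1.5 times. Points between 10 and 35 kb, at Hoxd11, Hoxd10 and Hoxd9, lie at or above the dotted line in all 3 panels.

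The other Hox clusters, measured by the same rule, placed Hoxd between the densely covered Hoxa and Hoxc and the sparsely covered Hoxb. In wild type peaks covered 41.9% of the length around the 11 Hoxa genes, 50.9% around 9 Hoxc genes, 14.4% around the Hoxd genes and 2.29% around 10 Hoxb genes. Summed over length by the main rule, the share was higher for posterior than for anterior genes in all 4 clusters and all 4 lists. At Hoxd in wild type this order turned with peaks of fold enrichment 4 or more. It also turned with Hoxd11 to Hoxd13 set against Hoxd1 to Hoxd4. Hoxb had only 2 posterior genes, and its Hoxb13 had no coverage in wild type and Ezh2-cKO. Posterior coverage was 81.5% at Hoxa, with 80.8 to 84.6% in the knockouts, and 59.8% at Hoxc, with 58.2 to 61.1%. At Hoxd it was 18.5% against 31.5 to 44.2%, and at Hoxb 7.08% against 6.26 to 15%. Room to rise was unequal, since Hoxa9, Hoxc9 and Hoxc10 were already covered over 100% in wild type. Below that limit, posterior Hoxa13 had 28.7% against 24.6 to 31.0%, and Hoxc13 17.7% against 14.7 to 20.6%. Anterior Hoxa2 had 4.4% against 5.5 to 25.2%, and Hoxa5 7.04% against 6.19 to 26.7%. Wider coverage in some knockouts was therefore not confined to Hoxd or to posterior genes. The longest Hoxd peak, 7536 bp, was shorter than the longest Hoxa and Hoxc peaks of wild type, 21937 and 34271 bp. With 1 library per genotype these differences between clusters could not be tested.

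Among the 30 genes of the other clusters, the gene nearest in coverage over the 4 lists was Hoxa6 for both Hoxd9 and Hoxd10, with a mean absolute difference of 18.1 and 8.22 percentage points. It was Hoxa3 for Hoxd11 (6.05), Hoxa4 for Hoxd8 (5.2), Hoxb5 for Hoxd13 (2.16), Hoxb6 for Hoxd4 (0.935) and Hoxc12 for Hoxd1 and Hoxd3 (3.98 and 3.06). Hoxd12 and Hoxb1 had no coverage in any list. Hoxd9 had the least close match of the 9, with 96.7% covered in Utx-cKO where Hoxa6 had 75.6%.

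Genes that work with or upstream of the Hoxd factors were nearly all marked, in every genotype. All 9 genes of the Pbx, Meis and Pknox families, whose proteins bind DNA as partners of Hox proteins, were marked in each list, with a median covered share of 3.26% in wild type, 8.27% in Utx-cKO, 3.24% in Jmjd3-cKO and 4.02% in Ezh2-cKO. The median of all genes was 3.2% in wild type, 5.41% in Utx-cKO, 3.33% in Jmjd3-cKO and 3.88% in Ezh2-cKO. Of 15 limb signals and regulators 12 were marked in all 4 lists, Fgf4 and Tfap2b in none, and Shh, the signal of the posterior limb margin, in Utx-cKO alone, with fold enrichment 2.96. Among the lineage regulators Eomes was marked in Utx-cKO and Jmjd3-cKO, Nkx2-5 in Utx-cKO, and Hand1 and Nkx2-1 in the 3 knockouts. Hand2, which acts upstream of Shh, was picked from the limb genes after its values were seen. It was covered over 18.6% in wild type and 40.6, 45.3 and 40.1% in Ezh2-cKO, Utx-cKO and Jmjd3-cKO. Gli3 of the same list went the other way, with 5.11% against 4.45, 3.71 and 4.48%. The medians of the 15 limb genes were 7.09% against 8.05, 11.6 and 8.55%. Of all genes marked in both lists, 18.8, 45.2 and 9.41% had coverage at least 1.5 times wild type. All 10 genes described as targets of posterior Hoxd factors were marked in each list, as were all 11 genes of Trithorax and Polycomb repressive complex 1, which hold Hox genes on or off. These shares stand against backgrounds of 66.7 to 71.7% of all genes.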

How the data were processed

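Tools named in the submitters' processing notes are ChIPseeker, deepTools 2.4.1, HOMER 4.10, MACS2, Bowtie2 and FastQC 0.11.5. Neither the notes nor the headers state a genome build, which is not given in the sources used here. Broad peaks came from MACS 2.1.2, run by the authors with 1 ChIP library and its input at a time, a q of 0.05, at most 1 duplicate and the deeper library scaled down, per the file headers. The number of peaks in a list can therefore move with depth. The authors deposited, for each peak, a pileup as coverage signal (not compared here), −log10 p-values and q-values, and fold enrichment as a ratio. The peaks fit GRCm38: of 94 promoter windows within 5 Mb of Hoxd13, 68 carried a wild-type peak, and 3 when moved by 20 kb to either side.

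Genes and promoter windows came from RefSeq (GRCm38.p6). Covered length is the part of a gene with 2 kb flanks under peaks. No transcript, exon or strand of a peak was used. Named genes are the members, their neighbours, the nearest other Hox gene of each and list genes marked in 1 to 3 lists, at most 4 per list; Hand2 was chosen after its values were seen. The members, lists and comparisons were chosen with earlier results of these data known. Alternatives were other thresholds, equally long lists, merging, windows, gene ends and other borders between posterior and anterior genes. As a check of the code alone, simulated peaks were placed inside the windows of 200 genes, and all 200 were found. Covered length matched a base count for 21883 genes, most of which had no simulated peak. Python 3.11.15, numpy 2.4.6, pandas 2.3.3 and matplotlib 3.10.9 were used.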

Additional observations from a re-analysis of the deposited data

How the results depend on the processing

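No paired analysis was possible because each genotype has 1 ChIP library and the labels give no replicate numbers. Of 78 alternative values for the counts of marked genes, the posterior minus anterior difference and the covered length, 62 kept their direction and stayed within 1.5 times the value in the report, 13 moved further and 3 changed direction. With peaks of fold enrichment 4 or more, a limit that is not equal between lists, 3 members were marked in wild type, 6 in Utx-cKO, 7 in Jmjd3-cKO and 4 in Ezh2-cKO. The posterior difference was then -2.5 points in wild type, 4.5 in Ezh2-cKO, 8.7 in Jmjd3-cKO and 33.6 in Utx-cKO. The Utx-cKO length ratio was 3.08 and its Hoxd3 ratio 0.792. The Hoxd10 peak passed the limit in Utx-cKO, at 4.12, and just missed it in Jmjd3-cKO, at 3.99. With Hoxd9 left out the difference was 1.4 points in wild type, 18.2 in Utx-cKO, 16.6 in Jmjd3-cKO and 13.3 in Ezh2-cKO. With Hoxd11 to Hoxd13 against Hoxd1 to Hoxd4 it was -3.5, 4.8, 8.2 and 4.3, listed the same way. When peaks within 3 kb were merged, gaps between them counted as covered. The posterior difference was then 14.2 points in wild type, 20.9 in Utx-cKO, 31.5 in Jmjd3-cKO and 18.7 in Ezh2-cKO. Merging gave length ratios of 1.46 in Utx-cKO, 1.17 in Jmjd3-cKO and 0.973 in Ezh2-cKO. The Hoxd9 ratio became 0.656 in Ezh2-cKO and 1.0 in Utx-cKO and Jmjd3-cKO. Other causes were not tested. With equally long lists of 27013 peaks the length ratios were 1.25, 1.87 and 1.67 in Ezh2-cKO, Utx-cKO and Jmjd3-cKO. The posterior difference was positive in 30 of 32 alternative values, which come from the same 4 ChIP libraries. The negative ones, -2.5 and -3.5 points, were both in wild type. The alternatives for single genes were chosen after seeing the data. Depth limits weak peaks: absence from a list does not show absence of the mark.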

Other observations

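The cluster lies between gene deserts that hold its limb enhancers. In the 800 kb beyond Hoxd13, peaks more than 2 kb from any protein-coding gene numbered 1 in wild type and Jmjd3-cKO and 2 in Ezh2-cKO and Utx-cKO. In the 800 kb beyond Hoxd1 they numbered 5 in wild type and Utx-cKO, 4 in Jmjd3-cKO and 3 in Ezh2-cKO. Per Mb of such sequence this was 1.47 in wild type on the Hoxd13 side and 7.96 on the Hoxd1 side, against 3.27 in the whole genome. In Utx-cKO it was 2.93 and 7.96 against 7.45, in Jmjd3-cKO 1.47 and 6.37 against 3.04, and in Ezh2-cKO 2.93 and 4.78 against 4.32. The highest fold enrichment among them was 4.1, in Jmjd3-cKO on the Hoxd1 side. The bordering genes Lnpk and Mtx2 were marked in all 4 lists, with fold enrichment of 7.48 to 11.84 and 10.87 to 14.83. These intervals and the non-coding genes were chosen after the data were seen.

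Non-coding genes of the cluster shared peaks with the Hoxd genes. Hoxd3os1, an opposite-strand transcript at the Hoxd3 start, was covered with its flanks over 25.4% in wild type, 34.3% in Utx-cKO, 19.5% in Jmjd3-cKO and 19.2% in Ezh2-cKO. Haglr, which lies beside Hoxd1, was covered over 4.93% in wild type, 8.93% in Utx-cKO, 9.3% in Jmjd3-cKO and 2.76% in Ezh2-cKO. The microRNA gene Mir10b, inside the RefSeq model of Hoxd4, had no peak over it. The nearest lay 1.16, 1.11 and 1.21 kb away in wild type, Ezh2-cKO and Jmjd3-cKO, and 6.79 kb away in Utx-cKO. The peaks carry no strand, so they cannot be assigned to a Hoxd gene or its antisense partner.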
